A study of Homo sapiens with 6 samples.

Results

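The genes described here are 43 genes of the NF-κB pathway, the cytokines and chemokines, measured in HCC-LM3, a human hepatocellular carcinoma cell line. They were chosen by name from a list, with earlier results of these data known. All 43 were on the array, 42 under the listed symbol and CXCL8 under its older symbol IL8. They stand among 23593 named genes, each represented by its brightest array feature in the average of the 6 arrays on the log2 scale. Of the 43, 21 had 1 feature and 22 had several, 81 features in all. Both groups of 3 samples came from separate cultures of this line grown in serum-containing medium and infected with lentivirus. The group called shNon received a control shRNA virus (LV-shNon), and the group called shASPP2 a virus against ASPP2 (LV-shASPP2), and RNA was taken 1 week after infection. The labels name 1 knockdown virus and 1 control virus, and selection for infected cells is not given in the sources used here. NimbleGen arrays in 1 colour (Cy3) were used, 1 for each sample, and the deposited values are linear intensities made with RMA, a method that removes background, brings the arrays to a common scale and combines probes into 1 value per feature. With 3 arrays per group, their number limits the precision.

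NF-κB is a family of dimeric transcription factors that IκB proteins hold in the cytoplasm. Signals from receptors of the TNF, interleukin-1 and Toll-like families activate the IKK kinase, IκB is degraded, and the dimers enter the nucleus and switch on genes of inflammation and survival. Among these targets are the pathway's own brakes, so that NFKBIA and TNFAIP3 mRNA often serve as readouts of its activity. In liver cancer the pathway is known both for keeping tumour cells alive and for the cytokines that connect them with surrounding cells.

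The promoter sequences of 7 of the genes are shown first, because κB sites near the start of a gene are where NF-κB is known to act. Shown are the 250 bases before the gene start for IL6, CXCL2, TNFAIP2, TNFAIP3, BIRC3, ICAM1 and NFKBIA. NFKBIA, the classical target, was added although its arrays overlapped between the groups. The others had groups without overlap, an unadjusted limma p under 0.05 and a signal above 2 times the random-probe row described below. They were also required to hold at least 1 match to the motif given next. IL1A and IL1B met the other conditions but held no match, so they are not shown. The sequences are RefSeq's, from GRCh38.p14, written 5′ to 3′ on the strand of the gene. Capitals mark matches to GGNNNTTCC on either strand, a short form of the κB motif, and neighbouring matches can overlap.
IL6: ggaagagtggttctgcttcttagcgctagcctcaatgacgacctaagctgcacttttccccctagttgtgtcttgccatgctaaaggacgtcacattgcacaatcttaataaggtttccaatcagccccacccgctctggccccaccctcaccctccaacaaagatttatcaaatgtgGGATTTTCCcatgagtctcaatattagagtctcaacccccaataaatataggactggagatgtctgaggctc
CXCL2: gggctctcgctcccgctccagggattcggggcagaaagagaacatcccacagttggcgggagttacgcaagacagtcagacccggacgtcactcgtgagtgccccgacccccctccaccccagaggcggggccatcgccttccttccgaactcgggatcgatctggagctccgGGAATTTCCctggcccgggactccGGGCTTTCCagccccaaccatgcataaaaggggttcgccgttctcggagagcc
TNFAIP2: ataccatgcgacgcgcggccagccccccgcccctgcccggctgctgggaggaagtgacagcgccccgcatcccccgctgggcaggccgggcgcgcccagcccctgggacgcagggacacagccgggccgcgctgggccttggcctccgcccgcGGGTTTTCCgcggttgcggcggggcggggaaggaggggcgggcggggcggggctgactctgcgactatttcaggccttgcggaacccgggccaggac
TNFAIP3: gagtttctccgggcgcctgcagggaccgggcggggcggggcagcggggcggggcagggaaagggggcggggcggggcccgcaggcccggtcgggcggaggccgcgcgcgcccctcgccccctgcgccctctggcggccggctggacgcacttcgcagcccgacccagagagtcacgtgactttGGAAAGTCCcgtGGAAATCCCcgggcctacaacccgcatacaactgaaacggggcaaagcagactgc
BIRC3: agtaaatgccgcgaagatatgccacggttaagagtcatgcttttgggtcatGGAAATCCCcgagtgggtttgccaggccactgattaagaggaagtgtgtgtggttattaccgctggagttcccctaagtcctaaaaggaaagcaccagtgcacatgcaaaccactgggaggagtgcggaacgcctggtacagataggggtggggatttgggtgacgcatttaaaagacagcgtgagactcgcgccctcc
ICAM1: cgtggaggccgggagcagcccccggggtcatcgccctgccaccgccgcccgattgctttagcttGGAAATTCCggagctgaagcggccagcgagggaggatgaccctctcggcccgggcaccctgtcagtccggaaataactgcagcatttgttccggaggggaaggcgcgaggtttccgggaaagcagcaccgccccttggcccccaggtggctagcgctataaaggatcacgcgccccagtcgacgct
NFKBIA: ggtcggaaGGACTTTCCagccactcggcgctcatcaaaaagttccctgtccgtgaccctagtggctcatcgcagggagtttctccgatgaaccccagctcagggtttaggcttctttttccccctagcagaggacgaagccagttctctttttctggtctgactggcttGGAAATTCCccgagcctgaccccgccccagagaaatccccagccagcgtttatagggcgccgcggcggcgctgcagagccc
The windows are chr7:22726950-22727199 (plus strand) for IL6, chr4:74099196-74099445 (minus strand) for CXCL2, chr14:103123211-103123460 (plus strand) for TNFAIP2 and chr6:137867009-137867258 (plus strand) for TNFAIP3. BIRC3 lies at chr11:102317234-102317483 (plus strand), ICAM1 at chr19:10270870-10271119 (plus strand) and NFKBIA at chr14:35404750-35404999 (minus strand).

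The letters were found at 72 bases before the start of IL6, at 77 and 53 before CXCL2, at 97 before TNFAIP2, at 67 and 55 before TNFAIP3, at 199 before BIRC3, at 186 before ICAM1, and at 242 and 81 before NFKBIA, each counted from the first base of the match. Of the 43 genes 33 had an entry in the promoter table, and 24 of these (72.7%) held a match upstream of at least 1 of their starts. The same was true of 20.2% of 27305 genes in the table, and of 17.1% of its 35116 windows. Because the 43 genes were listed by name for this pathway, the comparison with all genes is a description and no test. Matches stood before 5 of the 6 genes with an entry that were lower in shASPP2 and had an unadjusted limma p under 0.05, where IL1B held none. By the same p, they stood before 3 of the 4 higher genes with an entry (IL6, LTB and CXCL6, but not IL1A), and before 16 of the 23 other genes with an entry. CSF1 and CXCL16, which are described below, had no entry. A match is a stretch of letters, not a measured binding site.

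Unspecific signal was taken from 2508 probes of random sequence, which the files give as 1 row. This row lay between 31.8 and 33.3 in shNon and between 30.4 and 30.8 in shASPP2, so that each array was compared with its own row. Of the 43 genes 34 (79.1%) lay above 2 times the random-probe row in the mean over the 6 arrays, against 58.8% of all genes. All 5 NF-κB subunits, all 4 IκB genes and all 7 feedback and adaptor genes were above it. So were 8 of 9 interleukin and related genes, 2 of 3 colony-stimulating factors, 1 of 2 TNF family ligands, 6 of 11 chemokines and 1 of 2 adhesion molecules. At the bright end were TNFAIP2, ICAM1, CXCL5, CXCL16 and RELA, each over 100 times the row. The 9 genes that stayed under the limit were IL11, CSF3, TNF, CXCL3, CXCL6, CX3CL1, CCL2, CCL5 and VCAM1, with 0.831 (TNF) to 1.67 (CCL5) times the row. Values this dim say little about the mRNA, and brightness of different probes is no ratio of their transcripts.

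**Figure D1:**
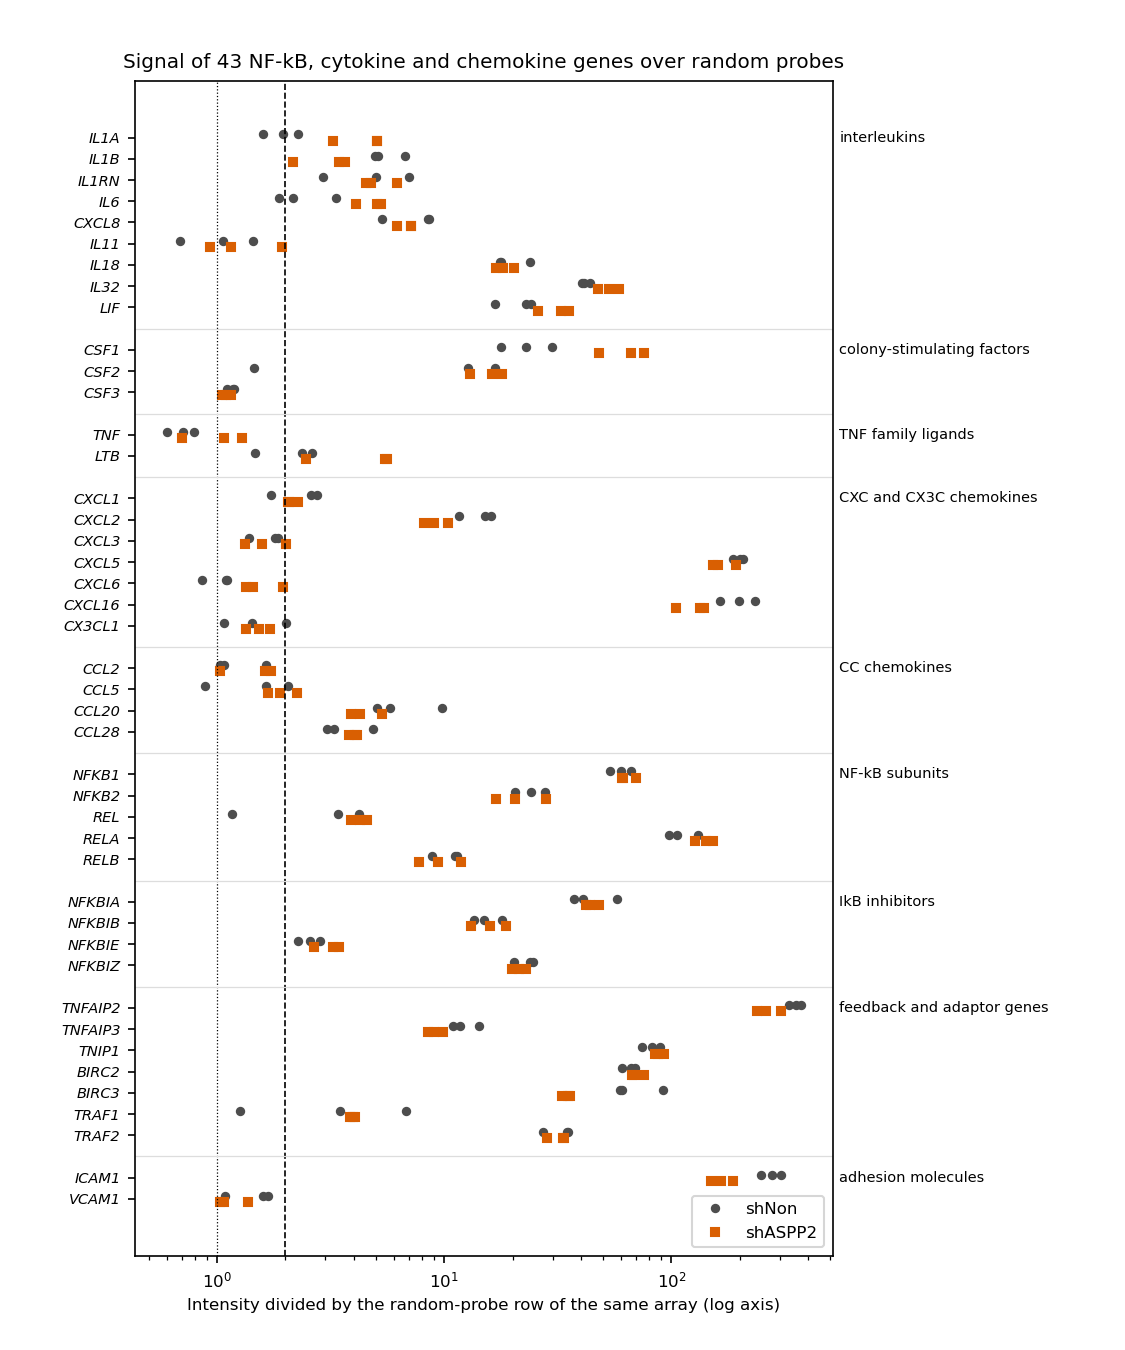
Intensity divided by the random-probe row of the same array (log axis) for the 43 genes, with 1 point per array (circles, shNon; squares, shASPP2). The dotted line is the row itself and the dashed line 2 times the row; 34 genes have a mean over the dashed line and 9 do not.

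The target of the shRNA was checked on the same arrays. The mean of TP53BP2, the gene of ASPP2, was 424 ± 81.9 in the controls and 197 ± 43.5 after knockdown (SD, n = 3), with no overlap (log2 fold change -1.11, limma adjusted p = 0.204, or 0.0256 with the trend and robust options described below). Over all genes limma called 10 higher and 14 lower in shASPP2 at an adjusted p of 0.05, and 8 higher and 20 lower after each array was centred on its median. The line's markers were partly present. KRT8, KRT18, HNF4A, TF and FGB were 32.9 to 354 times the random-probe row, while ALB was at 2.43 times and AFP, APOA1, APOB, TTR, SERPINA1 and EPCAM were under 2 times. FGB fell in shASPP2 (log2 fold change -1.73, limma adjusted p = 0.0361) and was the only 1 of these 12 markers to pass. TF (-0.39) and ALB (-0.34) were also lower without overlap. KRT8 (0.71), HNF4A (0.56) and KRT18 (0.25) were higher without overlap. So were TTR (0.62) and SERPINA1 (0.83), which were under 2 times the row. The summed intensity of the 12 was 21731 to 23570 in shNon and 25202 to 29609 in shASPP2. KRT8 was the largest part of it, with means of 8766 in shNon and 14332 in shASPP2. Leukocyte markers above 2 times the row were 4 of 15 (CD68, ITGAM, NKG7 and MARCO) while PTPRC and CD3E were under it. The summed intensity of the 15 was 3330 to 4482 in shNon and 4340 to 4939 in shASPP2. Endothelial markers were 1 of 7 (PECAM1), with CDH5, VWF and KDR under 2 times. Fibroblast and stellate markers were 4 of 8 (COL1A1, COL3A1, DCN and LUM, none over 6.70 times), with summed intensities of 536 to 759 in shNon and 637 to 773 in shASPP2.

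Knockdown of ASPP2 was compared with the control to see whether the pathway's genes differed. The arrays of the groups overlapped for most of them, among these all the transcription factor and IκB genes. The macrophage factor CSF1 had the largest positive difference, and BIRC3 the largest negative one. In the limma fit over all genes no gene of the 43 passed an adjusted p of 0.05, where 0.0424% of all genes passed as higher, 0.0593% as lower and 0.102% in all. At an unadjusted p under 0.05 there were 5 higher genes (IL1A, IL6, CSF1, LTB and CXCL6), or 11.6% of the 43 against 5.54% of all genes. The 7 lower ones (IL1B, CXCL2, CXCL16, TNFAIP2, TNFAIP3, BIRC3 and ICAM1) were 16.3% against 5.93%. Together these 12 were 27.9% against 11.5%. Because the 43 genes were chosen with earlier results of these data known, these shares and those given below are descriptions and no tests. Whether RNA per cell or the share of cells with the RNA differed cannot be told apart in such bulk samples.

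Limma's trend and robust options, which let the expected spread depend on brightness, called 5 of the 43 at an adjusted p of 0.05, or 11.6% against 2.14% of all genes. CSF1 rose in that model, where 0.996% of all genes did, and BIRC3, ICAM1, CXCL16 and TNFAIP2 fell, where 1.15% did. With 64 added to each intensity before log2, CSF1 rose (adjusted p = 0.0359; background 0.475%), and BIRC3 (0.0439) and ICAM1 (0.0356) fell (background 0.589%, or 1.06% in both directions). The 5 genes called with trend and robust variance lay between 37.8 (CSF1) and 306 (TNFAIP2) times the random-probe row. Of the 43, 79.1% were above 2 times the row, against 58.8% of all genes. Shares over only the genes above that limit were not counted for these models.

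Groups without overlap were counted too. The arrays did not overlap for 5 genes higher in shASPP2, or 11.6% against 9.3% of all genes, which is close to the background, and for 9 lower ones, or 20.9% against 9.52%. Together they were 32.6% against 18.8%. Of the 34 genes above 2 times the random-probe row 4 were higher and 8 lower without overlap, where 12.4% and 11.6% of all such genes were (23.9% together). CSF3 (lower) and CXCL6 (higher) were the dim ones among them. The median log2 fold change over the 43 genes was -0.03, beside 0.01 over all genes.

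**Figure D2:**
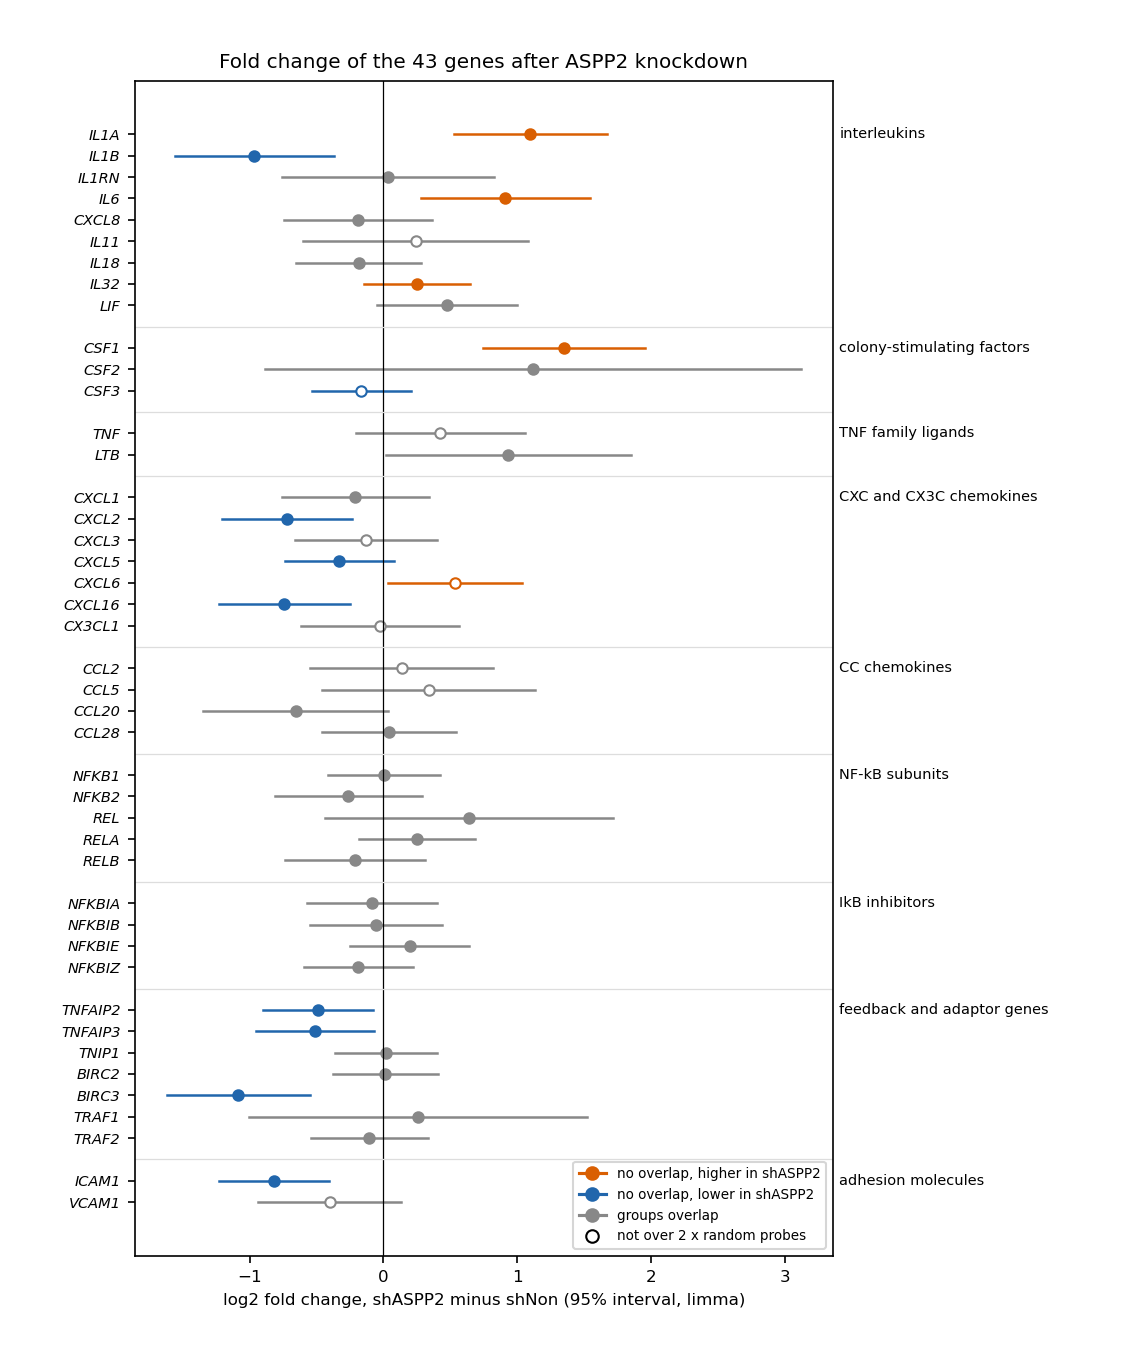
Log2 fold change (shASPP2 minus shNon) of each gene with its 95% interval from limma, by role. Filled points lie above 2 times the random-probe row, open points do not; orange and blue mark groups whose arrays do not overlap, and the 5 NF-κB subunits and 4 IκB genes are all grey.

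Interleukin-1 has 2 agonist forms, and their genes had differences of opposite sign. IL1A, which encodes the form that acts from the membrane and as an alarm signal of damaged cells, lies on chromosome 2 at 113247962 to 113259442 (hg18), next to IL1B at 113303807 to 113310827. IL1A had intensities of 63.7, 72.3 and 52.9 in the shNon arrays and 155, 154 and 99.5 in the shASPP2 arrays. All 3 shASPP2 arrays were above all 3 control arrays, and the control mean was only 1.92 times the random-probe row, so that the size of the difference is uncertain. The knockdown cells had a log2 fold change of 1.10 (SE 0.242, 95% interval 0.53 to 1.67, limma adjusted p = 0.201).

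IL1B, the secreted form that needs cleavage by caspase-1, had 167, 213 and 165 in shNon and 113, 105 and 66.5 in shASPP2. Here every shASPP2 array was below every control array. IL1B had a log2 fold change of -0.96 (SE 0.252, 95% interval -1.56 to -0.37, limma adjusted p = 0.252). IL1RN, whose product blocks the interleukin-1 receptor, ranged from 96.0 to 233 in shNon and from 139 to 191 in shASPP2, and its log2 fold change was 0.04 (95% interval -0.75 to 0.83). The IL1 genes thus had 1 higher, 1 lower and 1 overlapping member.

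IL6, the inducer of the acute phase response in hepatocytes, had 70.8, 59.5 and 111 in shNon and 161, 154 and 125 in shASPP2. The groups did not overlap, but the third control array lay close to the lowest knockdown array. IL6 had a log2 fold change of 0.91 (SE 0.267, 95% interval 0.28 to 1.54, limma adjusted p = 0.296). LIF, a cytokine of the same receptor family, had 546, 729 and 802 in shNon and 791, 1076 and 1006 in shASPP2. Only the highest control array reached into the knockdown range, and the log2 fold change was 0.47 (SE 0.222, 95% interval -0.05 to 1.00). Its dimmer second feature had 0.82 with no overlap between the groups.

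CXCL8, the neutrophil attractant interleukin-8, had 174, 273 and 283 in shNon and 219, 189 and 219 in shASPP2. The groups overlapped, and the log2 fold change was -0.19 (95% interval -0.74 to 0.36). IL18, which drives interferon-γ in lymphocytes, ranged from 567 to 783 in shNon and from 518 to 625 in shASPP2, with -0.18 (95% interval -0.65 to 0.28). IL32, a cytokine known to be induced by TNF, had 1427, 1317 and 1350 in shNon and 1463, 1625 and 1800 in shASPP2. These did not overlap, but the log2 fold change was only 0.25 (SE 0.168, limma adjusted p = 0.608), and the other 5 IL32 features had between -0.11 and 0.34. IL11 lay near the random-probe row in both groups, with a log2 fold change of 0.24.

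Colony-stimulating factors instruct myeloid cells, and CSF1 is the growth factor of macrophages. CSF1 had the smallest p of the 43 genes. Its intensities were 749, 945 and 594 in shNon and 1477, 2012 and 2330 in shASPP2. Every knockdown array was above every control array, and the log2 fold change was 1.35 (SE 0.256, 95% interval 0.74 to 1.95), a 2.54-fold difference. Limma's adjusted p was 0.161, and 5.94e-04 with trend and robust variance (range 5.94e-04 to 0.534 over all settings). The other 3 CSF1 features had 0.60, 0.79 and 0.93, in each case with no overlap between the groups, so that the brightest feature gave the largest value of the 4. Leaving out any 1 array left its log2 fold change between 1.18 and 1.53.

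CSF2, the gene of GM-CSF, had 546, 406 and 48.2 in shNon and 497, 397 and 552 in shASPP2. The third control array stood far below the other two, while these lay within the knockdown range. The log2 fold change of 1.12 therefore had a 95% interval of -0.88 to 3.12 (SE 0.848). TRAF1 and REL also had 1 control array far below the others, the third at 42.1 for TRAF1 and the first at 38.0 for REL. CSF3, the gene of G-CSF, was between 31.9 and 38.6 on every array, close to the random probes, with a log2 fold change of -0.17.

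Of the TNF family ligands, TNF itself was at or below the random-probe row (0.696 times it in shNon and 0.992 times in shASPP2), with a log2 fold change of 0.42. LTB, which pairs with lymphotoxin-α to signal through the non-canonical pathway, had 85.6, 46.5 and 78.6 in shNon and 172, 167 and 75.7 in shASPP2. The third knockdown array lay within the control range. Its log2 fold change was 0.93 (SE 0.389, limma adjusted p = 0.426), and its second feature had -0.26, so that the features disagreed in sign.

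Among chemokines, the values were lower or overlapping wherever the signal was clear. CXCL16, a membrane-bound chemokine that attracts CXCR6-bearing lymphocytes and also takes up oxidised lipoprotein, had 5327, 7392 and 6608 in shNon. In shASPP2 it had 3203, 4247 and 4114, all below the controls. This gave a log2 fold change of -0.74 (SE 0.209, 95% interval -1.23 to -0.25, limma adjusted p = 0.282). With trend and robust variance the adjusted p was 0.00666 (range 0.00666 to 0.634 over all settings), and its other features had -0.63 and -0.64.

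CXCL2, a ligand of the neutrophil receptor CXCR2, had 378, 482 and 533 in shNon and 276, 248 and 319 in shASPP2, with no overlap. This was a log2 fold change of -0.72 (SE 0.205, 95% interval -1.20 to -0.24, limma adjusted p = 0.282). Its second feature was dim, at 1.51 times the random-probe row, and had -0.20. CXCL5, a ligand of the same receptor, was bright, with 6092, 6552 and 6685 in shNon and 5885, 4652 and 4926 in shASPP2. These did not overlap either, but the difference was small at -0.33 log2 (SE 0.174, 95% interval -0.74 to 0.08, limma adjusted p = 0.525), and its second feature had -0.35 with overlapping groups.

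The CXCR2 ligands CXCL1, CXCL3 and CXCL6 are neighbours of CXCL2, CXCL5 and CXCL8 on chromosome 4, between 74825138 and 75183765 (hg18), and sequences within this family are so alike that features may share signal. CXCL1 was just above the limit, at 2.21 times the row, with a log2 fold change of -0.21. CXCL3 (1.64 times) had -0.13. CXCL6 (1.26 times) had 35.7, 35.1 and 28.6 in shNon and 60.1, 40.8 and 44.4 in shASPP2, with a log2 fold change of 0.54 (SE 0.213, limma adjusted p = 0.411). It was the only chemokine higher without overlap, and its control arrays were at the random-probe level.

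CCL20, which attracts CCR6-bearing T and dendritic cells, had 188, 161 and 324 in shNon and 119, 162 and 131 in shASPP2. The groups just overlapped, and its features had -0.65 (95% interval -1.34 to 0.04) and -0.28. CCL28, a chemokine of mucosal epithelia, had 0.04 (95% interval -0.46 to 0.54), with -0.78 to 0.02 on the other 3 features. The monocyte attractant CCL2, the T cell attractant CCL5 and the membrane chemokine CX3CL1 were too dim to compare, with log2 fold changes of 0.14, 0.34 and -0.03.

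**Figure D3:**
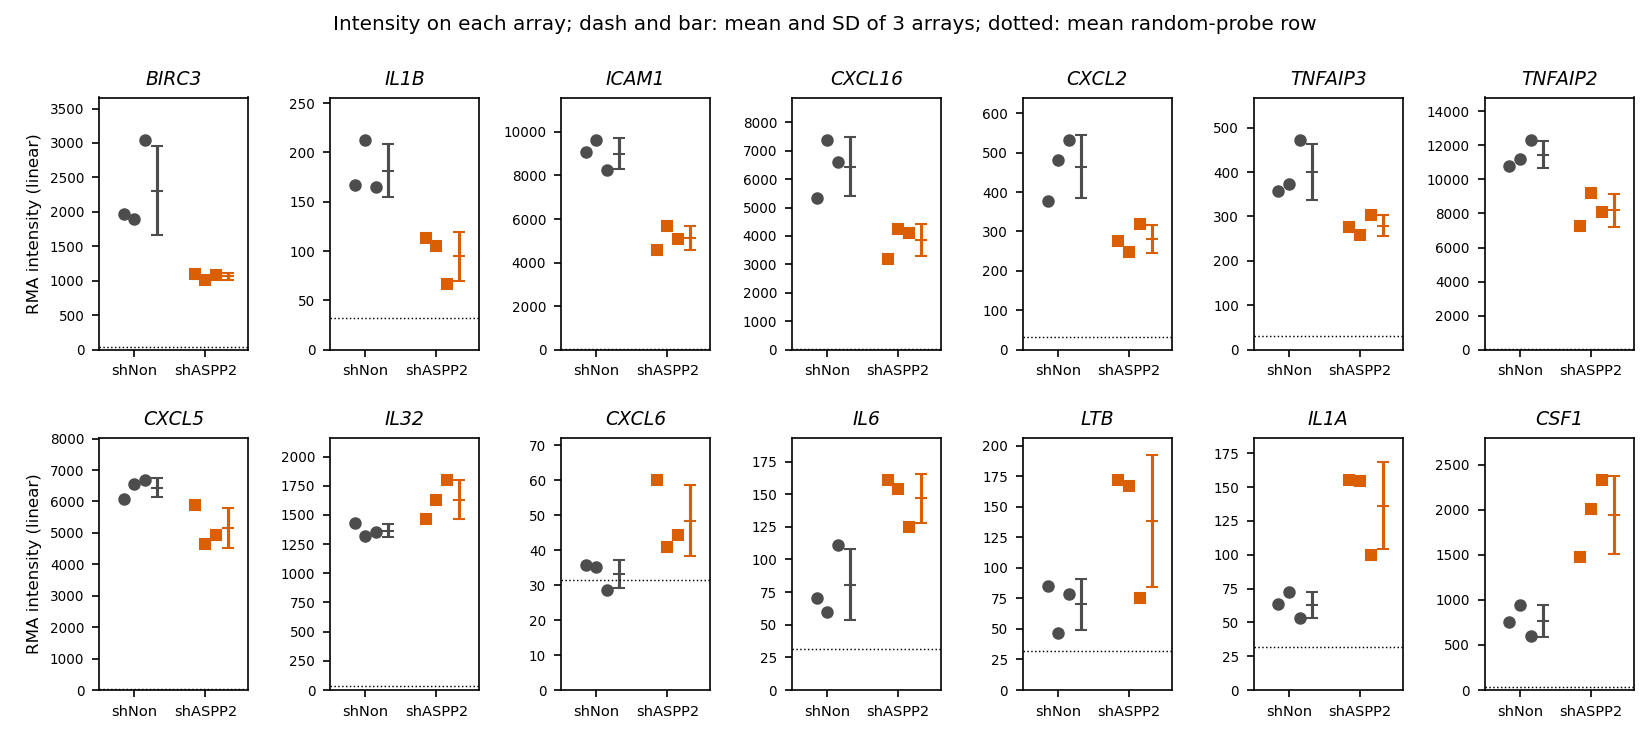
Intensity on each array, on linear axes from 0, of 14 genes, ordered by fold change: those above 2 times the random-probe row with groups that do not overlap or 1 of the 10 smallest p-values, and those with an unadjusted limma p under 0.05. Circles are shNon and squares shASPP2, the dash with its bar is the mean ± SD of 3 arrays, and the dotted line is the mean random-probe row; LTB is the only gene of the 14 whose groups overlap.

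The transcription factor genes themselves overlapped between the groups. RELA, which encodes p65, had 3181, 4176 and 3526 in shNon and 3916, 4317 and 4677 in shASPP2, a log2 fold change of 0.25 (95% interval -0.18 to 0.69). NFKB1, the gene of the canonical partner, had 0.01 (95% interval -0.41 to 0.42), with -0.01 and 0.10 on its other features. The non-canonical pair NFKB2 and RELB had -0.26 (95% interval -0.81 to 0.29) and -0.21 (95% interval -0.74 to 0.31). For REL the first control array widened the interval, to -0.44 to 1.72 around 0.64. RELA's other 3 features had 0.18, -0.13 and 0.20. None of the 5 genes passed under any setting tried, and the intervals give the sizes of change that these arrays leave possible.

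Nor did the IκB genes separate. NFKBIA had 1219, 1822 and 1359 in shNon and 1467, 1329 and 1297 in shASPP2, so that the knockdown arrays lay inside the control range, with -0.09 (SE 0.205, 95% interval -0.57 to 0.40). NFKBIB had -0.05 and NFKBIE, the gene of IκBε, 0.19. NFKBIZ, an atypical nuclear IκB needed for a subset of targets, had -0.19 on its brightest feature and 0.32 on the dimmer one. The 4 genes had a median of -0.07 log2.

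The feedback and survival genes held 3 of the lower values. BIRC3 (cIAP2), a ubiquitin ligase that blocks cell death from the TNF receptor, had 1973, 1893 and 3050 in shNon and 1099, 1009 and 1079 in shASPP2. The knockdown arrays lay close together and all under the controls, of which the third was highest. The log2 fold change was -1.08 (SE 0.227, 95% interval -1.62 to -0.55), a 2.12-fold difference. Limma's adjusted p was 0.191, and 0.00106 with trend and robust variance (range 0.00106 to 0.585 over all settings). Without any 1 array the log2 fold change was between -1.21 and -0.86. BIRC2 (cIAP1), the paralogue that lies beside BIRC3 on chromosome 11 (101723175 to 101754611 against 101693403 to 101713675, hg18), ranged from 1928 to 2262 in shNon and from 2065 to 2321 in shASPP2, with 0.01 (95% interval -0.38 to 0.41).

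TNFAIP3 (A20), a ubiquitin-editing enzyme that shuts off the signal to IKK, had 357, 373 and 473 in shNon and 276, 258 and 304 in shASPP2. All knockdown arrays were below all controls, with a log2 fold change of -0.51 (SE 0.187, 95% interval -0.96 to -0.07, limma adjusted p = 0.375), and the second feature had -0.56, also without overlap. TNFAIP2, induced by TNF in endothelial and other cells, had 10815, 11202 and 12346 in shNon and 7282, 9202 and 8062 in shASPP2. Its log2 fold change was -0.49 (SE 0.175, limma adjusted p = 0.367), and the trend and robust model called it (adjusted p = 0.0318; range 0.0318 to 0.716 over all settings).

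TNIP1, the partner through which A20 reaches its substrates, had 0.02 (95% interval -0.36 to 0.40), and its 4 features had between 0.02 and 0.17. TRAF2, the adaptor of the TNF receptor complex, had -0.11 (95% interval -0.54 to 0.33), and its other feature, under 2 times the random-probe row, had -1.05. TRAF1, itself a target of the pathway, had 0.26 (SE 0.536), and its dimmer feature -0.39.

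ICAM1, the ligand of leukocyte integrins on epithelium and endothelium, had 9099, 9653 and 8249 in shNon and 4595, 5695 and 5086 in shASPP2. The highest knockdown array was well below the lowest control. The log2 fold change was -0.81 (SE 0.174, 95% interval -1.23 to -0.40), a 1.76-fold difference. Limma's adjusted p was 0.196, and 7.03e-04 with trend and robust variance (range 7.03e-04 to 0.585 over all settings). The endothelial marker PECAM1 was lower too, with 1866 ± 84.7 in shNon and 968 ± 134 in shASPP2 (SD, n = 3). The summed intensity of the 7 endothelial markers was 2121 to 2272 in shNon and 1177 to 1334 in shASPP2. PECAM1 made up most of this sum, so that the sum mainly repeats its difference. The other endothelial markers were all under 2 times the random-probe row and went both ways. Their log2 fold changes were -0.73 (CDH5), -0.47 (TEK), 0.02 (VWF), 0.10 (KDR), 0.42 (STAB2) and 0.48 (CLEC4G). The part of these markers in the ICAM1 result was not tested. VCAM1, the other adhesion molecule, was near the random probes, at 1.28 times the row, with a log2 fold change of -0.40 (95% interval -0.94 to 0.13).

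**Figure D4:**
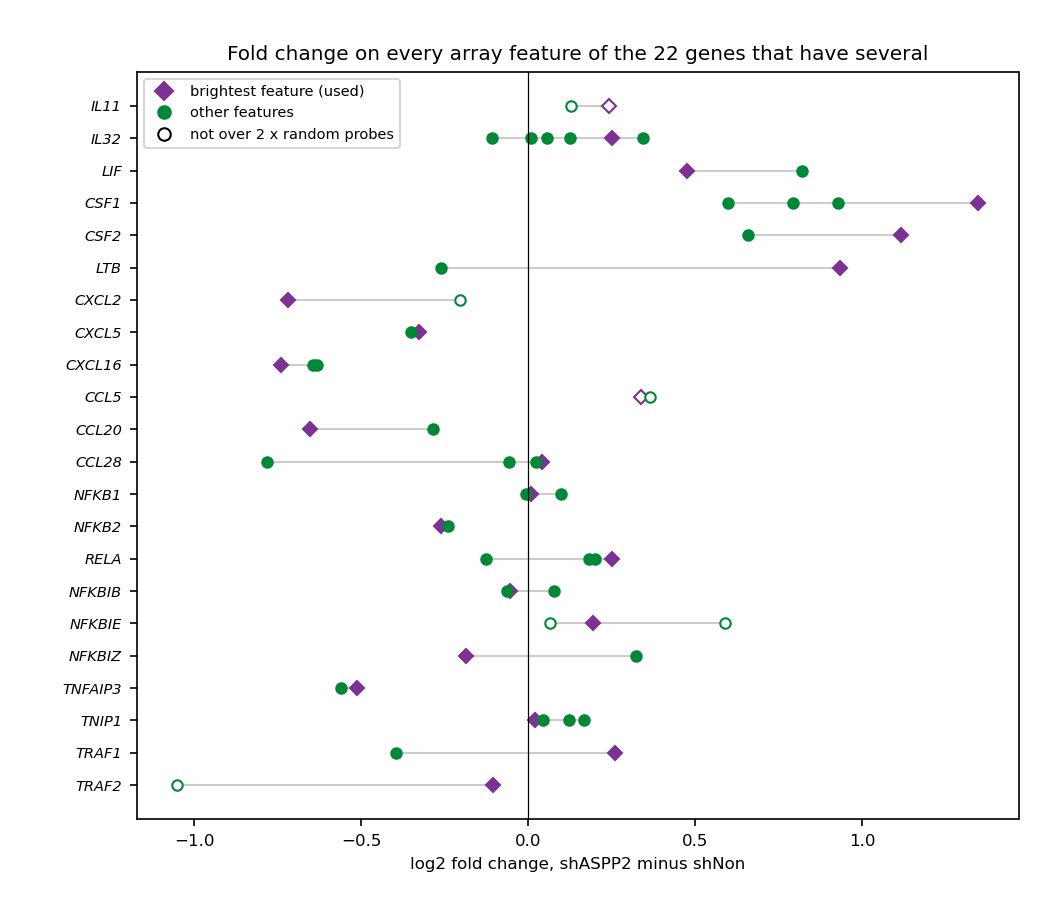
Log2 fold change (shASPP2 minus shNon) on each array feature of the 22 genes with more than 1 feature. Diamonds are the brightest feature, used in the text, circles the others, and open symbols lie at or under 2 times the random-probe row; the 4 CSF1 features lie between 0.60 and 1.35, while those of several genes, among them LTB, NFKBIZ and TRAF1, fall on both sides of 0.

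Genes that feed signals into the pathway were looked at as well. Of 29 receptor genes 9 were above 2 times the random-probe row, and none passed an adjusted p of 0.05 in limma. An unadjusted limma p under 0.05 was found for 5 higher and 4 lower genes, where 5.54% and 5.93% of all genes had it. IL1RAP, the shared chain of the interleukin-1 receptor, had 0.57 (SE 0.169), and IL6R, the receptor of interleukin-6, 0.50 (SE 0.155), both without overlap. CX3CR1 had 0.82 but was at the random-probe level. Of 29 relay genes between receptor and IKK all were above the limit and none passed in limma. By the unadjusted p there were 2 higher genes and 1 lower gene, beside the same shares of all genes. TRAF6, the ubiquitin ligase of interleukin-1 and Toll-like receptor signalling, had 111 ± 12.1 in shNon and 209 ± 16.5 in shASPP2 (SD, n = 3; log2 fold change 0.92, SE 0.175, limma adjusted p = 0.161). IKBKG (NEMO), the regulatory subunit of IKK, had 0.68 (limma adjusted p = 0.223) and rose in the trend and robust model (adjusted p = 0.00798). TRAF5, another TRAF adaptor, had -0.59. The medians of the receptor and relay lists were 0.16 and 0.12 log2.

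Other known NF-κB targets went both ways. Of 32, LCN2, an iron-siderophore carrier, was the 1 that passed over all genes in limma, and it fell from 1245 ± 67.9 to 411 ± 15.5 (SD, n = 3; log2 fold change -1.60, SE 0.158, adjusted p = 0.0296). PTGS2, the inducible cyclooxygenase, had -1.52 (SE 0.191, limma adjusted p = 0.0587, over the threshold) and fell in the trend and robust model (adjusted p = 2.44e-04). HAMP, the iron hormone hepcidin, which interleukin-6 induces, was counted in this list. It had 65.6 ± 8.31 in shNon and 152 ± 42.2 in shASPP2 (SD, n = 3; log2 fold change 1.17, limma adjusted p = 0.201). Its control mean was close to 2 times the random-probe row, so that the size of the difference is uncertain. CD44 had 0.55 (limma adjusted p = 0.343) and rose in the trend and robust model (adjusted p = 0.0263). An unadjusted limma p under 0.05 was found for 4 higher and 5 lower genes of the 32, where 5.54% and 5.93% of all genes had it. The median of the 32 was 0.08 log2.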

How the data were processed

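Human HCC-LM3 cells infected with control or ASPP2 shRNA virus were profiled on 6 NimbleGen arrays, 3 per group, and groups were taken from the sample titles. The authors deposited 1 intensity per feature and array, for which the submitters' processing notes name RMA, without version or settings. RMA draws dim features towards a floor, which makes their fold changes too small, and hides differences in total RNA. The deposited value table held the same values, with 0 differing cells. Features carry hg18 positions per the file headers. Of 45033 features 38916 were named by gene identifier and 78 by accession through RefSeq's GRCh38.p14 table, 3954 kept the file's name and 2085 were unnamed. The brightest feature stood for each of 23593 genes. The random-probe row entered no test.

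Log2 intensities were fitted with limma 3.58.1 (lmFit, eBayes) under R 4.3.3, with 1 term for the group, over all genes, with Benjamini-Hochberg adjustment and two-sided p-values. Errors are SDs over 3 arrays or limma's moderated standard errors (SE). The alternatives were median centring, cyclic loess, removal of genes under 2 times the random-probe row, trend and robust variance, array weights, a replicate block, 64 added before log2, the mean of a gene's features, and leaving out each array; for the level, limits of 1.5 and 3 times the row. Promoters were searched on both strands in the 250 bases before each RefSeq start.

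Array values are given for genes over 2 times the row whose groups did not overlap or that had 1 of the 10 smallest p-values, and for those with an unadjusted p under 0.05; a few others are given after their values were seen. In each context list the 3 smallest p-values are named, and other genes there are outside that rule. The genes and lists were chosen with earlier results of these data known.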

Additional observations from a re-analysis of the deposited data

How the results depend on the processing

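Over all genes the counts of 10 higher and 14 lower depended on the setting. They were 235 and 271 with trend and robust variance, 112 and 139 with 64 added before log2, 56 and 74 without dim genes (13877 genes tested) and 17 and 23 with the mean of a gene's features. Leaving out 1 array gave 0 to 1 higher and 0 to 5 lower: 1 and 4 without shNon array 1, 1 and 5 without shNon array 3, and 0 and 0 without any 1 of the others, where 1686 to 3106 genes had an unadjusted limma p under 0.05. Of the 43 genes, 0 passed in either direction as reported, after median centring, cyclic loess, array weights, removal of dim genes, averaging of features, or without any 1 array; in the last case 9 to 11 had an unadjusted p under 0.05 in limma. It was 1 higher (CSF1) and 4 lower with trend and robust variance, and 1 higher (CSF1) and 2 lower (BIRC3 and ICAM1) with 64 added before log2.

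The labels do not say whether equal replicate numbers mark a shared culture or day. The deviations of same-numbered arrays from their group means correlated at 0.076, -0.0975 and -0.136 across genes. Those of arrays with different numbers correlated at -0.110 to 0.176. With 3 arrays per group these values cannot settle whether the arrays were paired. The replicate block called 0 higher and 0 lower genes, and 0 of the 43, in limma, with 2208 genes and 9 of the 43 at an unadjusted p under 0.05.

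The 14 genes of the plot of single arrays kept their sign in all 195 values under other settings. Of the 29 others 13 changed sign under at least 1 setting, all with an adjusted limma p over 0.05 there. Of those given by array as well, NFKBIA was among the 13, with 0.08 without shNon array 2. The number above the random-probe limit was 36 at 1.5 times and 30 at 3 times the row, and the median of the 43 lay between -0.08 and -0.02 under all settings.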

Other observations

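Ligands outside the 43 genes were mostly faint in this line. Of 62 other cytokine and chemokine genes 13 lay above 2 times the random-probe row, and none passed an adjusted p of 0.05 over all genes in limma. An unadjusted limma p under 0.05 was found for 3 higher and 6 lower genes, where 5.54% and 5.93% of all genes had it. The higher ones, KITLG, TNFSF9 and IL17C, were above 2 times the row. Of the lower ones TNFSF10, CXCL9, CXCL14 and HGF were under it, so that their differences say little. KITLG, the ligand of the receptor KIT, had 387 ± 30.5 in shNon and 680 ± 126 in shASPP2 (SD, n = 3), a log2 fold change of 0.80 (SE 0.201). It rose with trend and robust variance (limma adjusted p = 0.0407, against 0.241 without these options). TNFSF15, a TNF family ligand, had 168 ± 31.9 and 98.3 ± 20.6, a log2 fold change of -0.77 (SE 0.241, limma adjusted p = 0.322). TNFSF10, which encodes TRAIL, an inducer of apoptosis, had -1.23 (SE 0.403, limma adjusted p = 0.342), but at 38.5 ± 5.87 it was near the random probes in shASPP2.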
